A study of Mus musculus with 21 samples.

Results

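R2 macrophages, the heart macrophages sorted as Ccr2-negative and MHC class II-high, were compared between mice challenged with CAWS and naive mice. CAWS is a water-soluble extract of the yeast Candida albicans that causes an inflammation of the coronary arteries in mice and serves as a model of Kawasaki disease. The comparison used 6 of the 21 libraries of the study, chosen by their labels alone: 3 CAWS R2 libraries and 3 naive R2 libraries. All came from hearts of C57BL/6 mice, and the 3 libraries of a group stand for 3 independent pools of mice, either CAWS-challenged or naive. The other libraries, 3 a group, were R1 macrophages (Ccr2-negative, MHC class II-low) and R3 macrophages (Ccr2-positive, MHC class II-high) of the same pools' hearts, and Ccr2-positive spleen monocytes of naive mice. The dose of CAWS, the time after challenge, the age of the mice and their number in a pool were not given in the sources used here.

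Resident macrophages seed the heart before birth or replace themselves there, and those with much MHC class II display peptides to helper T cells. Ccr2 is the receptor for Ccl2 that brings monocytes out of the blood, and heart macrophages that carry it descend mostly from monocytes. Yeast cell wall sugars are bound by C-type lectin receptors such as Dectin-1, Dectin-2 and Mincle, which signal through the kinase Syk and the adaptor Card9 to the transcription factor NF-kB. Interferon-gamma from T and NK cells, interleukin-1 and the growth factor GM-CSF then shape what macrophages express, each through its own set of target genes.

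Total counts ran from 15036719 to 19341770 in the CAWS R2 libraries and from 18013289 to 23006155 in the naive R2 libraries. Levels are given as CPM, counts scaled to library size, in each library, in the order of replicates 1, 2 and 3. A gene passed when its p-value in edgeR's quasi-likelihood test, adjusted over all 13275 genes tested by the Benjamini-Hochberg method, was below 0.05. Fold changes are log2 values of CAWS over naive with their standard error. Gene lists were chosen with earlier results of these data known, so counts of members that passed describe a list and do not test it. CAWS R2 replicate 2 stood apart in that 1 unnamed gene ID took 3.02% of its counts, against 0.217% to 0.358% in the other R2 libraries.

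In all, 1365 of 13275 genes passed (10.3%), 901 of them higher (6.79%) and 464 lower (3.5%) in CAWS R2. The rises were larger than the falls: 436 genes (3.28%) rose at least 2-fold and 25 (0.188%) fell at least 2-fold. The median log2 fold change over all genes tested was 0.02. The 3 CAWS and 3 naive libraries did not overlap for 4851 genes (36.5%). Leaving out a CAWS R2 library gave 875 calls (replicate 1) or 732 (replicate 2), and leaving out a naive R2 library gave 793 (replicate 1), 779 (replicate 2) or 859 (replicate 3). A fit of the 6 R2 libraries alone called 2809 genes, 52.8% of them higher, where the fit of all 21 libraries had 66.0% higher.

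**Figure D1:**
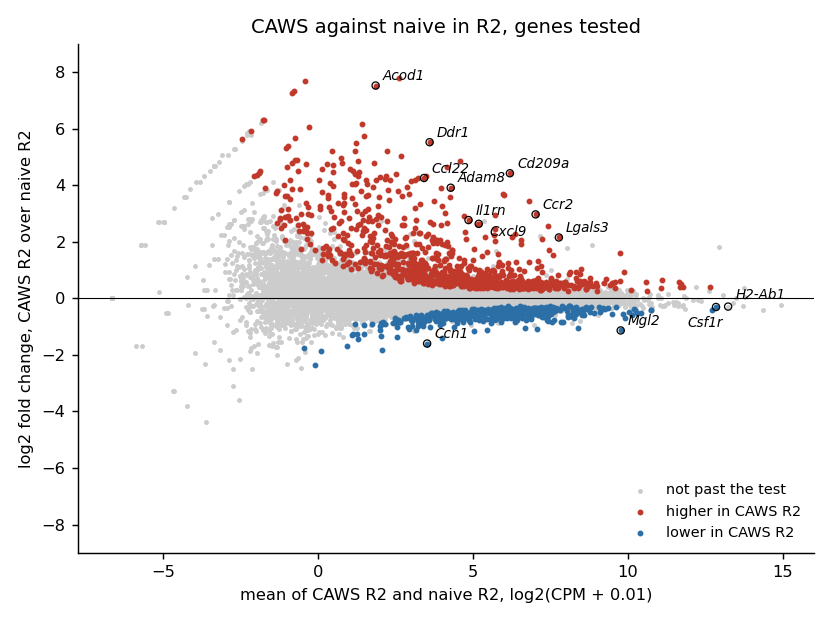
Each point is 1 of the genes tested. The horizontal axis is the mean level in CAWS R2 and naive R2 as log2(CPM + 0.01) and the vertical axis the log2 fold change of CAWS R2 over naive R2, with 901 genes higher in red and 464 lower in blue. The called genes reach further above 0 than below it.

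The sort markers showed a rise of Ccr2 at a low level and no call for class II. Ccr2 measured 206, 267 and 221 CPM in CAWS R2, against 29.0, 20.2 and 38.7 CPM in naive R2 (log2 fold change 2.97 ± 0.30, adjusted p = 5.40e-06). All 3 CAWS libraries lay far above all 3 naive ones, yet the CAWS R2 mean was 6.31% of that in CAWS R3 and 7.09% of that in naive monocytes. The class II chain H2-Ab1, which forms the peptide-binding molecule with H2-Aa, measured 9732, 9161 and 7147 CPM in CAWS R2, against 10631, 11579 and 9628 CPM in naive R2 (log2 fold change -0.29 ± 0.29, adjusted p = 0.601). H2-Aa (-0.27 ± 0.37, adjusted p = 0.728) and H2-Eb1 (-0.17 ± 0.37, adjusted p = 0.839) did not pass either, and CAWS R2 replicate 3 was the lowest library for all 3 chains.

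Most macrophage identity genes gave no call. Adgre1, which encodes the surface protein F4/80, measured 2403, 2638 and 2821 CPM in CAWS R2, against 2528, 2391 and 2209 CPM in naive R2 (log2 fold change 0.14 ± 0.09, adjusted p = 0.387). Mertk, a receptor for dying cells, had a log2 fold change of 0.19 ± 0.13, adjusted p = 0.386, and Fcgr1, the high-affinity IgG receptor, of -0.27 ± 0.11, adjusted p = 0.138. Csf1r, the receptor for the survival factor Csf1, fell to 6284, 6729.8 and 6739.5 CPM in CAWS R2, against 8508, 7963 and 7923 CPM in naive R2 (log2 fold change -0.30 ± 0.09, adjusted p = 0.0394). The fractalkine receptor Cx3cr1 also fell, to 1257, 1558 and 1613 CPM in CAWS R2, against 2028, 1976 and 1841 CPM in naive R2 (log2 fold change -0.40 ± 0.12, adjusted p = 0.0392). No CAWS library overlapped a naive one for either. Csf1r no longer passed when any 1 of the 6 libraries was left out (adjusted p between 0.0734 and 0.143), and Cx3cr1 still passed only without CAWS R2 replicate 3 (0.0624 to 0.198 without the others). Csf1r and Cx3cr1 were the 2 of 16 macrophage identity genes that passed, both lower, and the median log2 fold change of the 16 was -0.12. Together the 16 summed to 31187 to 32649 CPM in CAWS R2, below the 34653 to 37265 CPM in naive R2.

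Among the genes with the smallest p-values were a chemokine, an interleukin-1 blocker, a membrane protease and a calcium-dependent lipid-binding protein. Ccl22 (gene ID 20299, chr8:94745684-94751388 in GRCm38.p6), a chemokine that attracts cells with the receptor Ccr4, measured 23.4, 19.7 and 18.2 CPM in CAWS R2, against 1.26, 1.08 and 0.837 CPM in naive R2 (log2 fold change 4.26 ± 0.25, adjusted p = 2.76e-11). Adam8 (gene ID 11501, chr7:139978932-139995207), a protease that trims adhesion molecules at the cell surface, measured 35.1, 41.9 and 32.8 CPM in CAWS R2, against 3.16, 2.50 and 1.63 CPM in naive R2 (log2 fold change 3.91 ± 0.24, adjusted p = 5.82e-10). Anxa1 (gene ID 16952, chr19:20373434-20390671), annexin A1, a ligand of formyl peptide receptors, measured 142, 148 and 158 CPM in CAWS R2, against 37.8, 39.5 and 40.5 CPM in naive R2 (log2 fold change 1.93 ± 0.12, adjusted p = 6.78e-10). In each of the 3 the CAWS libraries lay close together and far above the naive ones. Il1rn (gene ID 16181, chr2:24336860-24351491), which encodes the interleukin-1 receptor antagonist, measured 42.5, 48.4 and 61.3 CPM in CAWS R2, against 8.72, 7.11 and 6.43 CPM in naive R2 (log2 fold change 2.77 ± 0.18, adjusted p = 1.09e-09). Kcnn4, a calcium-activated potassium channel, measured 24.5, 27.3 and 21.7 CPM in CAWS R2, against 1.49, 3.13 and 2.34 CPM in naive R2 (log2 fold change 3.43 ± 0.24, adjusted p = 1.79e-09). The groups were again well apart for both genes.

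**Figure D2:**
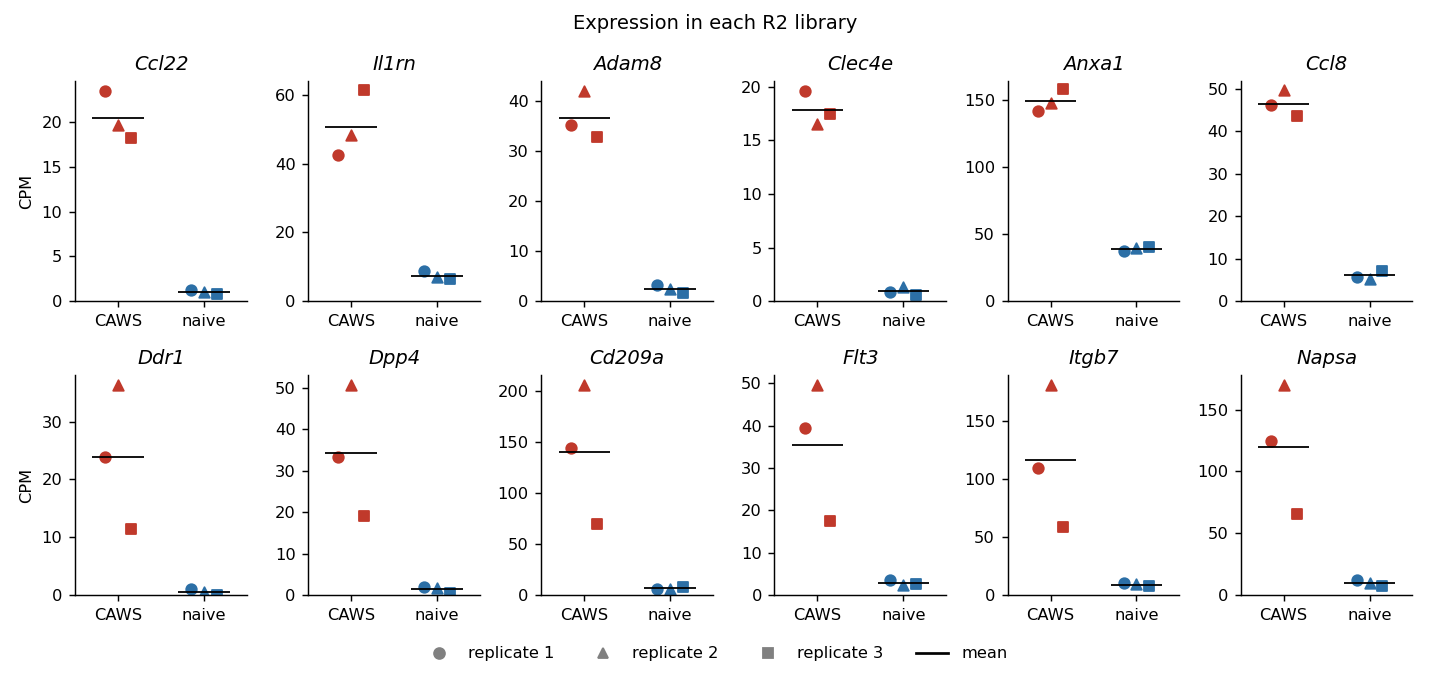
CPM in each of the 3 CAWS R2 (red) and 3 naive R2 (blue) libraries for 12 genes that rose, with the group mean as a line and replicates 1, 2 and 3 as circle, triangle and square. In the upper row the CAWS libraries lie close together; in the lower row CAWS R2 replicate 2 is the highest and replicate 3 the lowest, as for Cd209a with 206 and 69.9 CPM, and all CAWS libraries lie above all naive ones.

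Among the chemokine ligands, which guide leukocytes into tissue, 5 of 13 CC chemokines rose and 0 fell, with a median log2 fold change of 0.31. Ccl8, a ligand of several receptors on monocytes and T cells, measured 46.2, 49.5 and 43.5 CPM in CAWS R2, against 5.74, 5.35 and 7.14 CPM in naive R2 (log2 fold change 2.93 ± 0.37, adjusted p = 4.02e-05). Ccl5, which attracts T and NK cells, measured 7.28, 7.16 and 10.1 CPM in CAWS R2, against 1.90, 0.910 and 0.837 CPM in naive R2 (log2 fold change 2.72 ± 0.40, adjusted p = 8.55e-05). Ccl17, the other ligand of Ccr4, measured 5.89, 5.37 and 2.69 CPM in CAWS R2, against 1.40, 1.02 and 0.264 CPM in naive R2 (log2 fold change 2.38 ± 0.40, adjusted p = 2.00e-04). For each of the 3 the lowest CAWS library was above the highest naive one. The CAWS R2 mean of Ccl22 was 382% of that in CAWS R3, and none of the 7 groups had a higher mean. Ccl2, the main ligand of Ccr2, did not rise: it measured 16.2, 20.3 and 14.7 CPM in CAWS R2, against 28.6, 25.8 and 27.5 CPM in naive R2 and missed the threshold (log2 fold change -0.67 ± 0.22, adjusted p = 0.0507), with every CAWS library below every naive one. It passed as lower with DESeq2 (adjusted p = 0.0431) and in 7 other of the 16 alternatives, over which the adjusted p ran between 0.00135 and 0.174.

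Of 12 CXC and CX3C chemokine ligands, 3 rose and 1 fell. Cxcl9, which attracts activated T cells through Cxcr3, measured 50.3, 62.7 and 75.9 CPM in CAWS R2, against 9.58, 9.16 and 11.5 CPM in naive R2 (log2 fold change 2.64 ± 0.19, adjusted p = 3.70e-09). Cxcl10, a second Cxcr3 ligand, measured 24.1, 32.1 and 37.1 CPM in CAWS R2, against 9.44, 9.55 and 9.21 CPM in naive R2 (log2 fold change 1.73 ± 0.30, adjusted p = 6.56e-04). Cxcl3, which attracts neutrophils, measured 9.92, 2.17 and 3.83 CPM in CAWS R2, against 0.0452, 0 and 0.132 CPM in naive R2 (log2 fold change 6.17 ± 0.86, adjusted p = 3.39e-05), a fold that rests on few naive reads. CAWS R2 replicate 1 had the most Cxcl3 by far, and the 3 CAWS libraries still did not overlap the naive ones. Without CAWS R2 replicate 1, 2 or 3 or naive R2 replicate 1, 0 genes of the list passed as lower.

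Receptors for chemoattractants moved in both directions, 4 of 20 higher and 2 lower. Fpr1, a receptor for bacterial and mitochondrial formyl peptides, measured 17.1, 20.9 and 20.6 CPM in CAWS R2, against 4.11, 4.27 and 3.83 CPM in naive R2 (log2 fold change 2.27 ± 0.23, adjusted p = 5.86e-07). Its relative Fpr2, a receptor for annexin A1, measured 27.0, 26.02 and 25.7 CPM in CAWS R2, against 14.6, 8.99 and 10.5 CPM in naive R2 (log2 fold change 1.19 ± 0.17, adjusted p = 6.72e-05). The CAWS libraries of each agreed within a few CPM and lay above all naive ones. Ltb4r1, the receptor for the lipid leukotriene B4, measured 12.04, 21.95 and 8.80 CPM in CAWS R2, against 1.67, 0.569 and 0.969 CPM in naive R2 (log2 fold change 3.70 ± 0.63, adjusted p = 9.06e-04), with CAWS R2 replicate 2 highest. Gpr183, which follows oxysterols, fell to 154, 149 and 132 CPM in CAWS R2, against 238, 269 and 232 CPM in naive R2 (log2 fold change -0.76 ± 0.17, adjusted p = 0.00504). It was 1 of 2 genes lower, and only 1 of the 2 passed without naive R2 replicate 1, 2 or 3 or CAWS R2 replicate 1 or 2.

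In the interleukin-1 and inflammasome list, 5 of 21 genes rose and 1 fell, with blockers and a sensor among the genes that rose. Il18bp, which binds and neutralises interleukin-18, measured 11.1, 16.97 and 16.5 CPM in CAWS R2, against 6.51, 3.92 and 7.45 CPM in naive R2 (log2 fold change 1.30 ± 0.24, adjusted p = 0.00106). Mefv, which encodes the inflammasome sensor pyrin, measured 5.09, 5.204 and 6.41 CPM in CAWS R2, against 0.0904, 0.0569 and 0.132 CPM in naive R2 (log2 fold change 5.75 ± 0.65, adjusted p = 1.09e-06). Il18rap, a chain of the interleukin-18 receptor, measured 9.59, 9.60 and 8.26 CPM in CAWS R2, against 3.70, 3.07 and 2.91 CPM in naive R2 (adjusted p = 0.00214). The groups did not overlap for any of the 3. Il1b, the cytokine itself, chosen after its values were seen, measured 80.3, 71.1 and 87.6 CPM in CAWS R2, against 164, 80.1 and 131 CPM in naive R2 (log2 fold change -0.65 ± 0.42, adjusted p = 0.383), with CAWS R2 replicate 3 above naive R2 replicate 2. The 1 fall was lost when any 1 of the 6 libraries was left out.

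The NF-kB list, of subunits and regulators, held 8 genes higher and 0 lower of 25 (median log2 fold change 0.29), or 5 higher without naive R2 replicate 2. Tnip3, an inhibitor of NF-kB signalling, measured 34.3, 27.3 and 26.6 CPM in CAWS R2, against 3.03, 3.13 and 2.91 CPM in naive R2 (log2 fold change 3.28 ± 0.27, adjusted p = 2.36e-08). Ikbke, a kinase of the pathway, measured 11.6, 11.004 and 11.3 CPM in CAWS R2, against 0.497, 0.910 and 1.01 CPM in naive R2 (log2 fold change 3.81 ± 0.40, adjusted p = 1.53e-06). CAWS and naive libraries of both were far apart. Traf1, an adaptor of TNF receptors, measured 33.2, 39.4 and 29.1 CPM in CAWS R2, against 11.5, 13.2 and 13.1 CPM in naive R2 (log2 fold change 1.43 ± 0.18, adjusted p = 1.23e-05). Tnip1, which like Tnip3 binds the inhibitor A20, measured 70.5, 58.9 and 61.1 CPM in CAWS R2, against 30.3, 32.5 and 34.9 CPM in naive R2 (log2 fold change 0.96 ± 0.14, adjusted p = 1.03e-04). Their groups were separate too, with naive values close together.

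Genes of the GM-CSF response rose in 7 of 21 and fell in 0, with a median log2 fold change of 0.54. Itgax, the integrin chain CD11c, measured 241, 336 and 311 CPM in CAWS R2, against 53.4, 54.4 and 43.2 CPM in naive R2 (log2 fold change 2.56 ± 0.23, adjusted p = 5.18e-07). The CAWS R2 mean was the highest of the 7 groups and 136% of that in CAWS R3. Bhlhe40, a transcription factor induced by GM-CSF, measured 23.6, 39.8 and 24.1 CPM in CAWS R2, against 2.26, 2.27 and 1.37 CPM in naive R2 (log2 fold change 3.91 ± 0.50, adjusted p = 5.32e-05). Olr1, a receptor for oxidised lipoprotein, measured 2.45, 2.11 and 2.46 CPM in CAWS R2, against 0, 0.114 and 0.132 CPM in naive R2 (log2 fold change 4.74 ± 0.66, adjusted p = 2.17e-05), with almost no naive reads. Cd274, which encodes the T cell checkpoint ligand PD-L1, measured 16.5, 23.3 and 21.8 CPM in CAWS R2, against 9.62, 5.29 and 7.80 CPM in naive R2 (log2 fold change 1.43 ± 0.25, adjusted p = 6.57e-04). None of the 4 had an overlap between CAWS and naive libraries.

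Interferon-gamma target genes gave many calls and type I interferon target genes none. Of 26 interferon-gamma genes tested, 13 rose and 0 fell, and all 26 had a positive fold change, with a median of 0.52 on the log2 scale. Gbp2, a GTPase that attacks the vacuoles of intracellular microbes, measured 112, 157 and 183 CPM in CAWS R2, against 40.2, 36.6 and 31.5 CPM in naive R2 (log2 fold change 2.06 ± 0.21, adjusted p = 1.24e-06). Iigp1, an immunity-related GTPase, measured 63.5, 97.6 and 79.7 CPM in CAWS R2, against 36.8, 30.4 and 33.8 CPM in naive R2 (log2 fold change 1.25 ± 0.16, adjusted p = 2.50e-05). Serpina3g, a protease inhibitor, measured 8.004, 9.05 and 9.22 CPM in CAWS R2, against 0.768, 0.512 and 0.0441 CPM in naive R2 (log2 fold change 4.32 ± 0.58, adjusted p = 6.43e-05). The CAWS libraries lay above the naive ones in each. The count was 6 without CAWS R2 replicate 2 and also 6 without naive R2 replicate 3.

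In the type I interferon list, 0 of 26 genes passed in edgeR's test, 0 had an unadjusted p below 0.05, and 0 passed in DESeq2 or limma voom. Its median log2 fold change was 0.04. From lowest to highest library the list summed to 1115, 1193 and 1949 CPM in naive R2 and to 1232, 1366 and 1686 CPM in CAWS R2. With a spread this wide among the naive libraries, a small rise may have gone undetected. Mx1, an antiviral GTPase, measured 12.1, 8.40 and 11.5 CPM in CAWS R2, against 10.3, 6.48 and 6.70 CPM in naive R2 (log2 fold change 0.43 ± 0.28, adjusted p = 0.38), and the groups overlapped. Ifi44, another antiviral gene and the one with the smallest p of the list, measured 3.04, 3.85 and 3.71 CPM in CAWS R2, against 2.48, 1.42 and 0.837 CPM in naive R2 (log2 fold change 1.16 ± 0.58, adjusted p = 0.227), and passed in the fit of the R2 libraries alone (adjusted p = 0.0268, with 0.0268 to 0.493 over the alternatives).

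Promoters are shown for 3 genes that rose. The 250 bases before the RefSeq start (GRCm38.p6) of Ccl22, with the smallest p-value, and of Serpina3g and Cxcl10, of the interferon-gamma list, were searched on both strands. Serpina3g and Cxcl10 were taken from the members of that list with an NF-kB match, so their NF-kB matches were fixed by the choice. The motifs were the AP-1 site TGANTCA and the NF-kB consensus. Capitals mark the matches, which did not overlap each other. Ccl22 lies on the plus strand at chr8:94745434-94745683, Serpina3g on the plus strand at chr12:104235897-104236146 and Cxcl10 on the minus strand at chr5:92348890-92349139.
Ccl22: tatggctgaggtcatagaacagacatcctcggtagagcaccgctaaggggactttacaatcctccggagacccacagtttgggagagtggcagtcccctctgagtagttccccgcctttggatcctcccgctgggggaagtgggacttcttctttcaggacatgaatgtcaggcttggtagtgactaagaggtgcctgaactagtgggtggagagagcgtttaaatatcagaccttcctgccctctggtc
Serpina3g: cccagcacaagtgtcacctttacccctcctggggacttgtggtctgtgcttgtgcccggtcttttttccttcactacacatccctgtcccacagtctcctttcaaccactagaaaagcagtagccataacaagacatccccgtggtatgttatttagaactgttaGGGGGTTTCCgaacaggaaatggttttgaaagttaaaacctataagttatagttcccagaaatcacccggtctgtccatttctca
Cxcl10: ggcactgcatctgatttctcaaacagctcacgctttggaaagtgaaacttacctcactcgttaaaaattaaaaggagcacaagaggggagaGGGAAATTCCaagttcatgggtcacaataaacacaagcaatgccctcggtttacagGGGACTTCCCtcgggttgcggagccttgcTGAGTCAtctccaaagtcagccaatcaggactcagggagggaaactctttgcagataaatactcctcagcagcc
The Serpina3g stretch held an NF-kB consensus that begins 85 bases before the start. The Cxcl10 stretch held NF-kB consensus matches that begin 159 and 103 bases before the start and an AP-1 site at 74. The Ccl22 stretch held no match to either motif. Over all 32851 RefSeq windows of 300 bases, 4.51% held an NF-kB consensus and 7.81% an AP-1 site. Of the 13 interferon-gamma genes that rose, 10 had an entry and 5 of those held an NF-kB match in a window of that length; the matches are descriptions of the letters and say nothing of binding.

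Receptors for fungal sugars changed member by member. In the C-type lectin list 6 of 20 genes rose and 2 fell. Clec4e, or Mincle, which binds glycolipids of fungi and mycobacteria, measured 19.6, 16.5 and 17.5 CPM in CAWS R2, against 0.904, 1.36 and 0.573 CPM in naive R2 (log2 fold change 4.27 ± 0.31, adjusted p = 3.70e-09). Clec4d, its partner MCL, measured 22.8, 19.1 and 25.7 CPM in CAWS R2, against 4.83, 2.56 and 3.26 CPM in naive R2 (log2 fold change 2.64 ± 0.32, adjusted p = 1.46e-05). Clec4n, or Dectin-2, which binds fungal mannans, measured 219, 226 and 234 CPM in CAWS R2, against 153, 131 and 140.3 CPM in naive R2 (log2 fold change 0.68 ± 0.14, adjusted p = 0.00326). The 3 CAWS libraries of each lay close together and above the naive ones. Clec7a, or Dectin-1, the receptor for beta-glucan, was chosen after its values were seen and measured 844, 727 and 698 CPM in CAWS R2, against 767, 694 and 757 CPM in naive R2 (log2 fold change 0.03 ± 0.12, adjusted p = 0.916), and the groups overlapped. Mgl2, a galactose-binding lectin, fell to 582, 608 and 449.9 CPM in CAWS R2, against 1182, 1273 and 1144 CPM in naive R2 (log2 fold change -1.13 ± 0.22, adjusted p = 0.00236). With any 1 of the 6 libraries left out 1 of the 2 falls passed, and Mgl2 passed each time.

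Downstream, 4 of 20 genes of Syk and Card9 signalling rose and 0 fell. Fgr, a Src-family kinase, measured 84.9, 107 and 85.5 CPM in CAWS R2, against 13.7, 12.2 and 10.05 CPM in naive R2 (log2 fold change 2.95 ± 0.28, adjusted p = 1.50e-06), and the groups were well apart. Card9, the adaptor itself, measured 33.8, 34.8 and 27.9 CPM in CAWS R2, against 24.1, 27.2 and 25.3 CPM in naive R2 and did not pass (log2 fold change 0.34 ± 0.14, adjusted p = 0.144), although its libraries did not overlap. The count was 1 without CAWS R2 replicate 2 or naive R2 replicate 1 or 3, and 2 without CAWS R2 replicate 1 or 3 or naive R2 replicate 2. Toll-like receptors and their adaptors had 1 of 22 genes higher and 3 lower. Tlr4, the receptor for bacterial lipopolysaccharide, fell to 117, 128 and 157 CPM in CAWS R2, against 219, 216 and 189.6 CPM in naive R2 (log2 fold change -0.63 ± 0.14, adjusted p = 0.00371). Tlr5, the flagellin receptor, fell to 32.9, 40.8 and 40.2 CPM in CAWS R2, against 65.3, 63.6 and 59.8 CPM in naive R2 (log2 fold change -0.73 ± 0.18, adjusted p = 0.011), a call that was lost without CAWS R2 replicate 1 (adjusted p = 0.0649), when 1 gene of the list was lower. The 1 rise was lost when any 1 of the 6 libraries was left out.

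Genes known from dendritic cells and their precursors gave some of the largest fold changes. Of 14 genes of the pan-dendritic and pre-dendritic list, 10 rose and 0 fell, with a median log2 fold change of 2.57. Flt3, the growth factor receptor that dendritic cells depend on, measured 39.6, 49.7 and 17.4 CPM in CAWS R2, against 3.57, 2.50 and 2.64 CPM in naive R2 (log2 fold change 3.60 ± 0.46, adjusted p = 5.92e-05). Dpp4, a surface peptidase of dendritic cells, measured 33.2, 50.6 and 19.04 CPM in CAWS R2, against 1.90, 1.71 and 0.573 CPM in naive R2 (log2 fold change 4.65 ± 0.60, adjusted p = 6.72e-05). Kit, the stem cell factor receptor, measured 6.95, 8.94 and 6.89 CPM in CAWS R2, against 0.316, 0.569 and 0.308 CPM in naive R2 (log2 fold change 4.28 ± 0.51, adjusted p = 1.23e-05). In all 3, CAWS R2 replicate 2 was highest and the naive libraries were low and close together. Btla, an inhibitory receptor, had a log2 fold change of 4.22 ± 0.65, adjusted p = 1.66e-04, and Bcl11a, a lineage transcription factor, of 4.18 ± 0.64, adjusted p = 1.22e-04.

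The lists of the separate dendritic lineages moved in part. For type 2 conventional dendritic cells, which present antigen to helper T cells, 6 of 14 genes rose and 1 fell, with a median log2 fold change of 1.21. Cd209a, a mannose-binding lectin, measured 145, 206 and 69.9 CPM in CAWS R2, against 5.78, 5.97 and 7.71 CPM in naive R2 (log2 fold change 4.43 ± 0.66, adjusted p = 4.18e-04). Klrd1, the NK receptor chain CD94, measured 24.5, 28.8 and 11.3 CPM in CAWS R2, against 0.949, 1.19 and 1.06 CPM in naive R2 (log2 fold change 4.34 ± 0.55, adjusted p = 1.81e-05). Both spanned a more than 2-fold range within the CAWS group and stayed clear of the naive one. For type 1 conventional dendritic cells, which cross-present to cytotoxic T cells, 6 of 13 rose and 1 fell, with a median of 0.95. Xcr1, a receptor that defines this lineage, measured 2.78, 4.93 and 1.80 CPM in CAWS R2, against 0.678, 0.227 and 0.220 CPM in naive R2 (log2 fold change 3.04 ± 0.57, adjusted p = 8.03e-04). Cadm1, an adhesion molecule listed for the same lineage, fell to 141, 145 and 167 CPM in CAWS R2, against 209, 226 and 217 CPM in naive R2 (log2 fold change -0.53 ± 0.12, adjusted p = 0.00484). In the list of mature migratory dendritic cells 6 of 21 rose, Ccl22 and Ccl17 among them, and 1 fell. Its genes summed to 1511 to 1614 CPM in CAWS R2, below the 1883 to 1990.4 CPM in naive R2, although more members rose than fell.

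Classical monocyte genes rose in 13 of 19 and fell in 0, with a median log2 fold change of 2.74. Fn1, fibronectin, measured 179, 207 and 232 CPM in CAWS R2, against 25.8, 11.2 and 19.3 CPM in naive R2 (log2 fold change 3.44 ± 0.42, adjusted p = 5.52e-05). Itgb7, an integrin chain, measured 109, 181 and 58.7 CPM in CAWS R2, against 10.2, 9.16 and 7.62 CPM in naive R2 (log2 fold change 3.70 ± 0.43, adjusted p = 3.34e-05). F10, coagulation factor X, measured 7.74, 10.3 and 9.58 CPM in CAWS R2, against 0.0904, 0.455 and 0.220 CPM in naive R2 (log2 fold change 5.22 ± 0.61, adjusted p = 1.05e-05). The groups were far apart for these 3. Mcemp1, a membrane protein of monocytes, measured 16.7, 18.97 and 9.58 CPM in CAWS R2, against 1.17, 0.910 and 0.485 CPM in naive R2 (log2 fold change 4.14 ± 0.50, adjusted p = 2.15e-05). Lyz1, a lysozyme, measured 162, 169 and 149.6 CPM in CAWS R2, against 57.1, 68.2 and 70.7 CPM in naive R2 (log2 fold change 1.29 ± 0.21, adjusted p = 4.40e-04), and its reads may be shared with its close relative Lyz2. CAWS and naive libraries did not overlap for either.

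Summed levels set these rises beside the other groups. The 19 monocyte genes summed to 849 to 1070.4 CPM in the CAWS R2 libraries, against 198 to 218 CPM in naive R2, 5245 to 5846 CPM in CAWS R3 and 22523 to 23053 CPM in naive monocytes. The sort marker Ccr2 is among the 19, with a mean of 231 CPM in CAWS R2, 3667 CPM in CAWS R3 and 3262 CPM in naive monocytes. Most of the CAWS R3 sum was thus Ccr2, and the sort itself enters the gap between R2 and R3. The 14 pan-dendritic genes summed to 885 to 1209.7 CPM in CAWS R2, against 439 to 499 CPM in naive R2, and to 923 to 1105 CPM in CAWS R3. In naive monocytes they summed to more, 1235 to 1605.5 CPM, so the list is not particular to dendritic cells here. Napsa made up most of that sum, with a mean of 992 CPM in naive monocytes and 120 CPM in CAWS R2. The sums of the type 1 list, 1047 to 1166 CPM in CAWS R2 and 1149.7 to 1214 CPM in naive R2, and of the type 2 list, 2638 to 3017 CPM in CAWS R2 and 2927 to 3185 CPM in naive R2, overlapped between the groups. The part of such cells in the rises was not tested, and in bulk samples more cells of a type and more RNA per cell cannot be told apart.

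**Figure D3:**
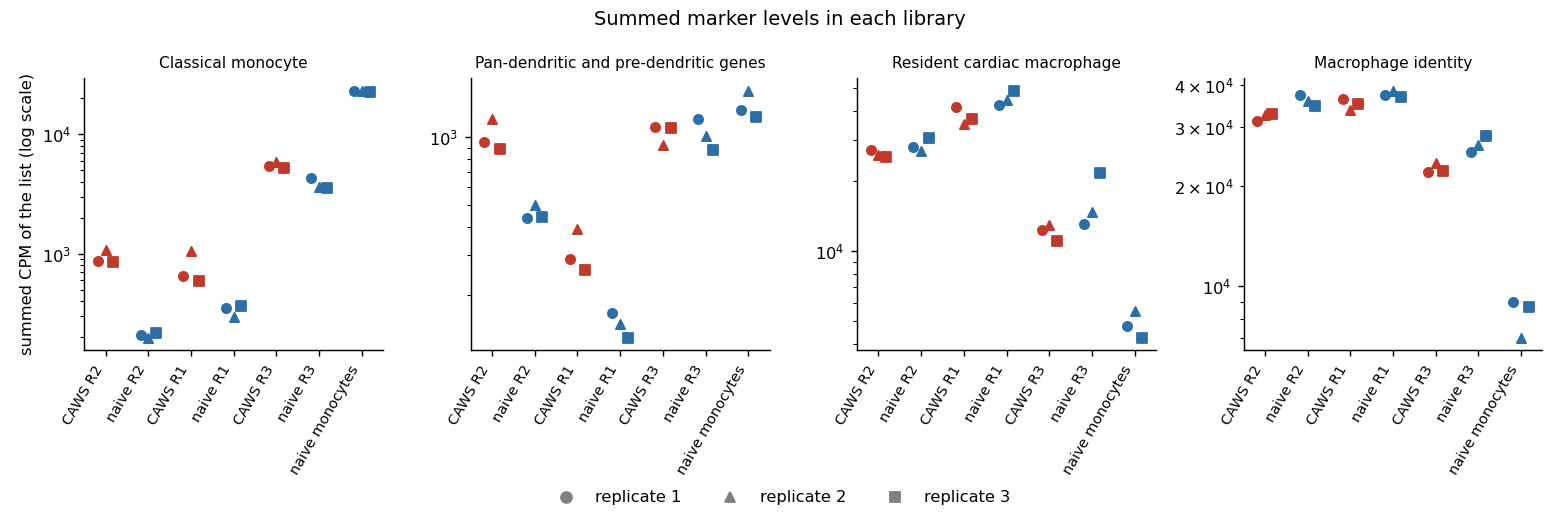
Summed CPM of 4 marker lists in each library on log axes, with CAWS groups in red, naive groups in blue and replicates 1, 2 and 3 as circle, triangle and square. Monocyte genes, which include the sort marker Ccr2, sum to 849 to 1070.4 CPM in CAWS R2 and 198 to 218 CPM in naive R2. Both lie far below R3 and monocytes. Pan-dendritic genes in CAWS R2 reach the range of R3 and lie below the 1235 to 1605.5 CPM of monocytes. Macrophage identity genes sum to 31187 to 32649 CPM in CAWS R2, below the 34653 to 37265 CPM in naive R2.

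The CAWS R2 libraries did not hold these genes evenly. All 10 pan-dendritic genes that rose were highest in CAWS R2 replicate 2, and 9 of the 10 were lowest in replicate 3 in the order replicate 2, 1, 3. Among all 901 genes that rose, 263 (29.2%) had that order, and among all genes tested 16.6%. The median coefficient of variation over the CAWS R2 libraries was 46.2% for the 10 dendritic genes, against 8.81% for the 13 genes of the lipid and repair list that rose, 1 of which had that order. This median was 12.35% for all 901 genes and 22.5% for the 436 that rose at least 2-fold. It was 44.4% for the type 1 and 40% for the type 2 dendritic genes that rose. Of the 13 interferon-gamma genes that rose, 0 had the order replicate 2, 1, 3, and of the 13 monocyte genes, 7. Without CAWS R2 replicate 2, 9 of 14 pan-dendritic genes, 5 of 14 type 2 genes, 5 of 13 type 1 genes and 11 of 19 monocyte genes still passed as higher.

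The genes that rose in R2 were mostly higher in naive R3 than in naive R2. Of the 901, 777 (86.2%) had a higher mean in naive R3 than in naive R2, against 51.5% of all genes tested, and the naive R2 libraries enter both the rise and this count. In CAWS R2 the median of the 901 was 89.2% of the level in CAWS R3, 333 lay above CAWS R3, and 156 were highest in CAWS R2 of all 7 groups. Over all 13275 genes tested the median was 103%, 7208 lay above CAWS R3 and 893 were highest in CAWS R2. The CAWS R2 libraries enter both the rise and these counts. Kit reached 508% of its CAWS R3 level and Spib, a transcription factor of B and plasmacytoid dendritic cells, 338%, whereas Fn1 reached 28.3%. Spib measured 8.80, 13.9 and 4.55 CPM in CAWS R2, against 1.36, 1.08 and 0.0881 CPM in naive R2 (log2 fold change 3.47 ± 0.50, adjusted p = 3.79e-05).

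Lists of other blood and heart cells held between 0 and 3 genes higher and 0 lower each. In the T cell, B cell, NK, mast cell and endothelial lists, all short, the share higher lay above the 6.79% of all genes tested. Of 10 neutrophil genes, 0 passed in edgeR's test (2 had an unadjusted p below 0.05, 1 passed in DESeq2 and 2 in limma voom), and Ly6g and Camp had 0 counts in all 6 libraries. The T cell list had 1 of 4 higher, Il7r, the interleukin-7 receptor (2.89 ± 0.34, adjusted p = 4.14e-06), while 8 further T cell genes were too low to test, with 28 counts together in CAWS R2 and 11 in naive R2. Of these, 6 had more counts in CAWS R2, Cd8a among them with 9 in CAWS R2 and 0 in naive R2, and the T cell receptor gene Cd3e had 0 in CAWS R2 and 5 in naive R2; both were chosen after their values were seen. The T cell genes summed to 53.3 to 61.7 CPM in CAWS R2 and 36.3 to 42.7 CPM in naive R2, and the B cell list, with 1 of 6 higher, to 658 to 845 CPM in CAWS R2 and 630.3 to 672 CPM in naive R2. The B cell call was lost without any 1 of the 6 libraries other than naive R2 replicate 1. The NK list had 2 of 6 higher, Ccl5 and Klrk1, the activating receptor NKG2D (3.94 ± 0.50, adjusted p = 2.83e-05), and its genes summed to 20.3 to 31.1 CPM in CAWS R2 and 3.08 to 5.42 CPM in naive R2. Its defining receptor Ncr1 had 15 counts in CAWS R2 and 7 in naive R2. Siglecf, an eosinophil and alveolar macrophage lectin and the 1 of 5 mast cell and eosinophil genes that rose, had a log2 fold change of 1.84 ± 0.27, adjusted p = 5.26e-05, and the basophil gene Mcpt8 had 0 counts in either group.

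For heart tissue, 0 of 20 cardiomyocyte genes passed in edgeR's test (2 had an unadjusted p below 0.05, 1 passed in DESeq2 and 0 in limma voom), and they summed to 224 to 309 CPM in CAWS R2 and 221 to 291 CPM in naive R2. Of 15 fibroblast and mural genes, 1 rose, Gsn, the actin-severing gelsolin, which measured 527, 599 and 523 CPM in CAWS R2, against 349, 344 and 318 CPM in naive R2 (log2 fold change 0.71 ± 0.13, adjusted p = 0.00107). The list summed to 580.1 to 653 CPM in CAWS R2 and 373 to 402 CPM in naive R2, and Gsn alone made up most of these sums. Naive spleen monocytes had a mean of 378 CPM of Gsn, and there the list summed to 360 to 420 CPM. Of 13 endothelial genes 3 rose, among them Vwf, von Willebrand factor (1.55 ± 0.26, adjusted p = 3.47e-04), and Pecam1, an adhesion molecule that leukocytes also carry (1.53 ± 0.32, adjusted p = 0.0032); they summed to 157 to 176 CPM in CAWS R2 and 128 to 134 CPM in naive R2. The part of these cells in the other results was not tested.

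Antigen presentation genes rose in part, for both classes of MHC molecule. In the class II list 4 of 14 genes rose and 0 fell, with a median log2 fold change of 0.17. H2-Oa, a chain of the peptide-editing inhibitor H2-O, measured 32.2, 37.1 and 12.2 CPM in CAWS R2, against 2.71, 5.801 and 5.1998 CPM in naive R2 (log2 fold change 2.59 ± 0.43, adjusted p = 5.92e-04). H2-DMb2, a chain of the editor H2-M, measured 29.0, 38.9 and 12.75 CPM in CAWS R2, against 6.73, 6.71 and 8.28 CPM in naive R2 (log2 fold change 1.89 ± 0.35, adjusted p = 0.00126). Both were highest in CAWS R2 replicate 2 and lowest in replicate 3, and both belong to the pan-dendritic list too. Ifi30, a lysosomal thiol reductase that opens proteins for peptide loading, measured 450.5, 547 and 445 CPM in CAWS R2, against 239, 234 and 227 CPM in naive R2 (log2 fold change 1.04 ± 0.10, adjusted p = 4.59e-07). The fourth, the chain H2-Eb2, measured 10.5, 9.65 and 7.96 CPM in CAWS R2, against 5.69, 6.20 and 5.07 CPM in naive R2 (log2 fold change 0.73 ± 0.23, adjusted p = 0.0392), and its call was lost without any 1 of the 6 libraries other than CAWS R2 replicate 3 (adjusted p = 0.0713 to 0.143 in edgeR). Both were separate from naive. Ciita, the master regulator of class II genes, measured 277, 318 and 301 CPM in CAWS R2, against 197, 266 and 216 CPM in naive R2 and did not pass (log2 fold change 0.40 ± 0.17, adjusted p = 0.145).

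In the class I list 8 of 21 rose and 0 fell, with a median of 0.30. The classical chain H2-K1 measured 2445, 2853 and 2719 CPM in CAWS R2, against 1775, 1801 and 1492 CPM in naive R2 (log2 fold change 0.66 ± 0.11, adjusted p = 3.34e-04). H2-D1, another classical chain, measured 3675, 3975 and 3749 CPM in CAWS R2, against 2638, 2699 and 2350.2 CPM in naive R2 (log2 fold change 0.57 ± 0.09, adjusted p = 1.51e-04). Tap1, which pumps peptides to class I molecules, measured 267, 343 and 301 CPM in CAWS R2, against 225, 220.5 and 166 CPM in naive R2 (log2 fold change 0.57 ± 0.12, adjusted p = 0.0023). All CAWS libraries lay above all naive ones for each. H2-Q7, a nonclassical gene, had a log2 fold change of 1.19 ± 0.23, adjusted p = 0.00158. Class I genes have near-identical copies, so reads may have been split among them.

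Costimulation and checkpoint genes had 5 of 18 higher and 1 lower. Vsir, the checkpoint receptor VISTA, fell to 1048, 1174 and 1119 CPM in CAWS R2, against 1608, 1765 and 1458 CPM in naive R2 (log2 fold change -0.53 ± 0.10, adjusted p = 0.00147). The number higher was 3 without CAWS R2 replicate 1 or naive R2 replicate 1 or 3. Ebi3, a subunit of interleukin-27 and interleukin-35, measured 118, 125 and 112 CPM in CAWS R2, against 82.7, 80.3 and 73.2 CPM in naive R2 (log2 fold change 0.59 ± 0.11, adjusted p = 9.95e-04), with CAWS libraries all above naive ones.

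Genes that mark resident heart macrophages gave no call in R2. Of 22, 0 passed in edgeR's test, with a median log2 fold change of -0.21; 2 higher and 3 lower had an unadjusted p below 0.05, 0 passed in DESeq2, and 1 higher and 4 lower passed in limma voom. In the fit of the R2 libraries alone 1 passed as higher and 10 as lower. Lyve1, a hyaluronan receptor, measured 192, 254 and 170.4 CPM in CAWS R2, against 345, 314 and 481 CPM in naive R2 (log2 fold change -0.89 ± 0.31, adjusted p = 0.0777). Timd4, a receptor for dying cells, measured 68.1, 78.9 and 57.9 CPM in CAWS R2, against 92.7, 89.2 and 117 CPM in naive R2 (log2 fold change -0.55 ± 0.26, adjusted p = 0.199). All CAWS libraries were below all naive ones for both. Vsig4, a complement receptor of resident macrophages, measured 77.3, 65.2 and 84.4 CPM in CAWS R2, against 68.0, 37.6 and 54.7 CPM in naive R2 (log2 fold change 0.50 ± 0.22, adjusted p = 0.157), and the groups overlapped. Igf1, a growth factor, measured 466, 392.3 and 499 CPM in CAWS R2, against 289.9, 282 and 377 CPM in naive R2 (log2 fold change 0.52 ± 0.19, adjusted p = 0.0908). The mannose receptor Mrc1 measured 3072, 3090.1 and 3374 CPM in CAWS R2, against 4108, 3954 and 4232 CPM in naive R2 (log2 fold change -0.37 ± 0.23, adjusted p = 0.348). Neither overlapped, with CAWS libraries above naive for Igf1 and below for Mrc1.

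Genes of lipid-handling and repair macrophages rose in 13 of 27 and fell in 0, with a median log2 fold change of 0.55. Lgals3, galectin-3, measured 348, 358 and 367 CPM in CAWS R2, against 77.7, 88.3 and 75.4 CPM in naive R2 (log2 fold change 2.15 ± 0.15, adjusted p = 1.79e-09). Capg, an actin-capping protein, measured 251, 271 and 284 CPM in CAWS R2, against 89.9, 81.8 and 76.1 CPM in naive R2 (log2 fold change 1.70 ± 0.14, adjusted p = 3.05e-08). Vim, vimentin, measured 1162, 1332 and 1410.4 CPM in CAWS R2, against 421, 461 and 387 CPM in naive R2 (log2 fold change 1.62 ± 0.13, adjusted p = 1.28e-08). The 3 CAWS libraries of each varied little and lay far above the naive ones. Nr1h3, which encodes the oxysterol receptor LXR-alpha, measured 19.2, 21.2 and 23.4 CPM in CAWS R2, against 4.16, 6.14 and 4.19 CPM in naive R2 (log2 fold change 2.16 ± 0.27, adjusted p = 1.23e-05). Cd9, a tetraspanin, had a log2 fold change of 0.86 ± 0.12, adjusted p = 3.58e-05, and the lysosomal proteases Ctsd and Ctsb of 0.92 ± 0.14, adjusted p = 1.02e-04, and 0.40 ± 0.09, adjusted p = 0.00617.

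**Figure D4:**
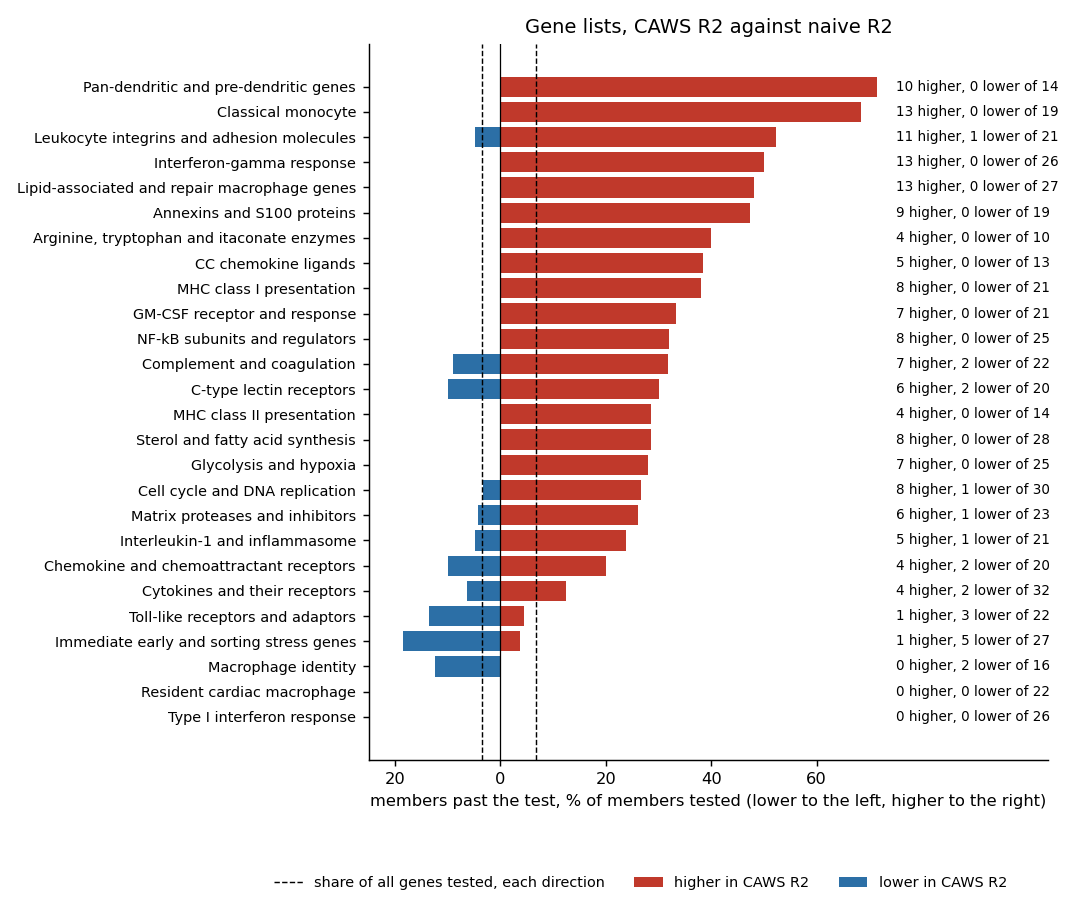
The gene lists drawn are a chosen part of the 55. Bars give the share of tested members that passed as higher (red, right) or lower (blue, left) in CAWS R2 against naive R2. Counts stand at the right, and dashed lines mark the share of all genes tested, 6.79% higher and 3.5% lower. The lists were chosen with earlier results of these data known, so the distance of a bar from the line is no test of a list. Lists not drawn include type 2 conventional dendritic cells with 6 of 14 higher and cytosolic ribosomal proteins with 1 of 32. Pan-dendritic and monocyte genes stand at the top with 10 of 14 and 13 of 19 higher, and type I interferon genes at the bottom with 0 of 26.

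Annexins and S100 proteins, calcium-binding proteins of membranes and the cytoskeleton, rose in 9 of 19 and fell in 0, with a median log2 fold change of 0.54. Anxa2, annexin A2, measured 267, 319 and 269 CPM in CAWS R2, against 101, 99.0 and 96.1 CPM in naive R2 (log2 fold change 1.53 ± 0.12, adjusted p = 1.28e-08). S100a6 measured 72.3, 76.6 and 58.6 CPM in CAWS R2, against 14.6, 16.9 and 14.2 CPM in naive R2 (log2 fold change 2.19 ± 0.26, adjusted p = 1.46e-05). The groups were far apart for both. Among integrins and adhesion molecules 11 of 21 rose and 1 fell, or 7 rose without naive R2 replicate 3. Jaml, which binds the junction protein CAR, measured 16.2, 24.9 and 9.28 CPM in CAWS R2, against 1.63, 0.569 and 0.485 CPM in naive R2 (log2 fold change 4.20 ± 0.53, adjusted p = 5.63e-05). Cd24a, a small sugar-coated surface protein, measured 19.3, 24.4 and 10.4 CPM in CAWS R2, against 2.35, 2.05 and 1.01 CPM in naive R2 (log2 fold change 3.34 ± 0.62, adjusted p = 0.00188). Both were highest in CAWS R2 replicate 2 and lowest in replicate 3. Spn, the surface mucin CD43, had a log2 fold change of 1.07 ± 0.18, adjusted p = 5.11e-04.

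Enzymes that cut matrix rose in 6 of 23 and fell in 1. Mmp14, a membrane-anchored collagenase, measured 129.5, 129.9 and 147 CPM in CAWS R2, against 29.4, 24.1 and 29.7 CPM in naive R2 (log2 fold change 2.29 ± 0.17, adjusted p = 5.84e-09). Mmp12, macrophage elastase, measured 285, 195 and 255 CPM in CAWS R2, against 48.4, 65.3 and 57.2 CPM in naive R2 (log2 fold change 2.10 ± 0.24, adjusted p = 1.13e-05). Plaur, the urokinase receptor, measured 21.9, 16.2 and 19.5 CPM in CAWS R2, against 6.55, 6.71 and 7.93 CPM in naive R2 (log2 fold change 1.43 ± 0.27, adjusted p = 0.00137). All were separate from naive. The 1 fall was lost without naive R2 replicate 1 or CAWS R2 replicate 1 or 2. In the list of collagen and matrix receptors and ligands 4 of 24 rose and 3 fell. Ddr1, a receptor kinase for collagen, measured 23.8, 36.3 and 11.4 CPM in CAWS R2, against 0.994, 0.455 and 0.0881 CPM in naive R2 (log2 fold change 5.53 ± 0.64, adjusted p = 1.23e-05). Hpse, which cuts heparan sulfate, measured 11.3, 16.3 and 14.4 CPM in CAWS R2, against 2.39, 3.64 and 2.60 CPM in naive R2 (log2 fold change 2.31 ± 0.22, adjusted p = 2.59e-07). Itgav, the alpha-v integrin chain, fell to 117, 105 and 141 CPM in CAWS R2, against 198, 196 and 186 CPM in naive R2 (log2 fold change -0.68 ± 0.14, adjusted p = 0.00251).

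Complement and coagulation genes rose in 7 of 22 and fell in 2. Cfb, factor B of the alternative pathway, measured 45.1, 70.4 and 72.0 CPM in CAWS R2, against 8.90, 6.31 and 14.4 CPM in naive R2 (log2 fold change 2.64 ± 0.31, adjusted p = 1.46e-05). C3, the central component, measured 99.4, 125 and 154 CPM in CAWS R2, against 21.9, 18.8 and 42.5 CPM in naive R2 (log2 fold change 2.18 ± 0.32, adjusted p = 1.99e-04). Properdin, Cfp, measured 416, 471 and 376 CPM in CAWS R2, against 234, 169.9 and 252 CPM in naive R2 (log2 fold change 0.94 ± 0.18, adjusted p = 0.00109). No CAWS library overlapped a naive one in the 3. Thbd, thrombomodulin, which restrains clotting, fell to 33.7, 33.2 and 34.6 CPM in CAWS R2, against 59.5, 70.9 and 56.4 CPM in naive R2 (log2 fold change -0.88 ± 0.20, adjusted p = 0.00777). Of the 2 falls 1 passed without naive R2 replicate 3 or CAWS R2 replicate 2.

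Among metabolic enzymes, Acod1, which makes itaconate, was almost without reads in naive R2. It measured 5.23, 6.72 and 9.76 CPM in CAWS R2, against 0.0904, 0 and 0 CPM in naive R2. Summed over the libraries it had 366 counts in CAWS R2 and 2 in naive R2, a ratio of 227 per library size with an exact 95% interval of 62.5 to 1883 that covers counting error only (adjusted p = 1.68e-07). All CAWS libraries had reads and 1 naive library did. Ass1, which makes the precursor of arginine, measured 4.70, 3.79 and 4.01 CPM in CAWS R2, against 0.136, 0 and 0.353 CPM in naive R2 (log2 fold change 4.50 ± 0.49, adjusted p = 5.43e-07), and reads may be split with its near-identical pseudogenes. Kynu, of tryptophan breakdown, measured 5.75, 8.08 and 3.65 CPM in CAWS R2, against 0.361, 2.10 and 1.23 CPM in naive R2 (log2 fold change 2.31 ± 0.49, adjusted p = 0.00342). These were among 4 of 10 arginine, tryptophan and itaconate enzymes that rose, with 0 lower. Slc7a11, which brings in cystine for glutathione, measured 7.21, 7.37 and 7.19 CPM in CAWS R2, against 1.49, 0.455 and 0.925 CPM in naive R2 (log2 fold change 2.87 ± 0.37, adjusted p = 2.12e-05). Rac2, a subunit of the oxidant-producing NADPH oxidase, measured 401, 467 and 418 CPM in CAWS R2, against 292, 277 and 270.1 CPM in naive R2 (log2 fold change 0.62 ± 0.09, adjusted p = 1.33e-04). The oxidant list had 6 of 21 higher and 0 lower, or 3 higher without naive R2 replicate 3.

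Sterol and fatty acid enzymes rose in 8 of 28 and fell in 0. Scd2, a fatty acid desaturase, measured 37.2, 59.3 and 53.4 CPM in CAWS R2, against 16.8, 15.2 and 13.2 CPM in naive R2 (log2 fold change 1.73 ± 0.22, adjusted p = 2.15e-05), and the groups did not overlap. The number higher was 4 without CAWS R2 replicate 2 or naive R2 replicate 3, and 5 without replicate 3 of CAWS R2 or replicate 2 of naive R2. Glycolysis and hypoxia genes rose in 7 of 25 and fell in 0. Pfkp, phosphofructokinase, measured 68.9, 79.2 and 75.2 CPM in CAWS R2, against 43.6, 43.2 and 40.1 CPM in naive R2 (log2 fold change 0.82 ± 0.13, adjusted p = 1.45e-04). Aldoa, aldolase, had a log2 fold change of 0.52 ± 0.10, adjusted p = 0.00124 and Pkm, pyruvate kinase, of 0.45 ± 0.08, adjusted p = 9.54e-04. CAWS and naive libraries did not overlap for the 3. Cell cycle genes rose in 8 of 30 and fell in 1. Birc5, survivin, measured 9.66, 12.1 and 15.6 CPM in CAWS R2, against 4.65, 3.24 and 4.27 CPM in naive R2 (log2 fold change 1.60 ± 0.33, adjusted p = 0.00286), with all CAWS libraries above naive. Ccnd2, cyclin D2, fell to 54.5, 85.9 and 63.2 CPM in CAWS R2, against 160.3, 130.2 and 127 CPM in naive R2 (log2 fold change -1.03 ± 0.16, adjusted p = 1.35e-04). The number higher was 4 without CAWS R2 replicate 2 or naive R2 replicate 2.

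Transcription factors of macrophages and dendritic cells had 7 of 49 higher and 4 lower. Hr, a nuclear corepressor, measured 9.46, 9.92 and 7.78 CPM in CAWS R2, against 0.316, 0.284 and 1.19 CPM in naive R2 (log2 fold change 3.85 ± 0.54, adjusted p = 3.76e-05). Tal1, a factor of blood stem cells and red cells, fell to 7.28, 10.3 and 9.16 CPM in CAWS R2, against 24.8, 26.6 and 19.1 CPM in naive R2 (log2 fold change -1.39 ± 0.23, adjusted p = 3.17e-04). Klf2, a factor that quiets macrophages, fell to 202, 181 and 140.4 CPM in CAWS R2, against 339.7, 297 and 295 CPM in naive R2 (log2 fold change -0.83 ± 0.15, adjusted p = 7.94e-04). The groups were separate in each. The number higher was 4 without CAWS R2 replicate 2 or naive R2 replicate 1 or 2, and the number lower 2 without CAWS R2 replicate 1.

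The falls were smaller than the rises. Among genes past the threshold whose groups did not overlap and whose higher group averaged at least 4 log2 CPM, the 20 largest falls ran from -1.60 to -0.83 on the log2 scale, against 2.93 to 5.53 for the 20 largest rises. Ccn1, a matrix protein induced at once by growth signals, fell to 6.15, 5.75 and 5.27 CPM in CAWS R2, against 22.9, 16.5 and 12.5 CPM in naive R2 (log2 fold change -1.60 ± 0.29, adjusted p = 0.00109). Tra2a, a splicing regulator, fell to 17.2, 20.9 and 23.4 CPM in CAWS R2, against 45.9, 45.2 and 46.7 CPM in naive R2 (log2 fold change -1.16 ± 0.14, adjusted p = 8.35e-06). Serpinf1, an inhibitor of vessel growth, fell to 95.5, 85.5 and 77.2 CPM in CAWS R2, against 176, 196 and 172 CPM in naive R2 (log2 fold change -1.08 ± 0.16, adjusted p = 1.08e-04). In these 3 the CAWS libraries lay well below the naive ones. Stk17b, a kinase linked to cell death, had a log2 fold change of -1.04 ± 0.16, adjusted p = 1.23e-04, Arsb, a lysosomal sulfatase, of -0.83 ± 0.12, adjusted p = 8.48e-05, and Ptgs1, cyclooxygenase 1, of -0.84 ± 0.16, adjusted p = 0.00117.

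Immediate early and sorting stress genes, which respond within minutes to handling, had 1 of 27 higher and 5 lower, with a median log2 fold change of -0.51. Dnajb1, a heat shock cochaperone, fell to 37.3, 44.5 and 45.6 CPM in CAWS R2, against 86.0, 62.1 and 81.2 CPM in naive R2 (log2 fold change -0.85 ± 0.15, adjusted p = 6.75e-04). Ccn1 and Klf2 belong to this list too. It summed to 2908 to 3030.0 CPM in CAWS R2 and 3254 to 3932 CPM in naive R2, and the part of handling in the falls was not tested. The 1 rise was lost without naive R2 replicate 1, 2 or 3 or CAWS R2 replicate 2 or 3.

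The CAWS response of R2 was last set against those of R1 and R3, as a test of the difference between fold changes. It differed from R1 in 7 genes (0.0527%), of which 5 (0.0377%) were more positive in R2 and 2 (0.0151%) more negative, and from R3 in 309 (2.33%), of which 296 (2.23%) were more positive in R2 and 13 (0.0979%) more negative. The R1, R2 and R3 libraries of a treatment came from the same pools, and with the pool as a replicate block, matched by replicate number, the counts were 123 against R1 and 812 against R3. Without CAWS R3 replicate 2 the R3 count was 192, with 3 genes more negative in place of 13; these 13 became 7 (replicate 1) or 6 (replicate 2) when a CAWS R2 library was left out, and 5 (replicate 1) or 7 (replicate 2) when a naive R2 library was. The R1 count was 1 without replicate 2 of CAWS R2 or replicate 3 of naive R1, 2 or 3 without replicate 1 or 2 of naive R2, and 4 or 12 without replicate 1 or 2 of CAWS R1.

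Against R1, Anxa1 was the firmest: its log2 fold change was 1.93 ± 0.12 in R2 and 0.75 ± 0.12 in R1, a difference of 1.18 ± 0.17 (adjusted p = 0.00579) that passed without any 1 of the 12 libraries. Cadm1 fell in R2 and rose in R1 (log2 fold change 0.58 ± 0.12), a difference of -1.11 ± 0.17 (adjusted p = 0.00839), lost without naive R1 replicate 3 (0.0508) or CAWS R2 replicate 2 (0.0546). Cd300lg, a mucin-like receptor of endothelial cells, measured 16.01, 22.7 and 13.4 CPM in CAWS R2, against 9.80, 9.67 and 9.08 CPM in naive R2 (log2 fold change 0.87 ± 0.23, adjusted p = 0.0161). In R1 it measured 12.6, 11.6 and 9.75 CPM in CAWS R1, against 16.7, 30.7 and 23.6 CPM in naive R1, and the difference between the fold changes was 1.93 ± 0.32 (adjusted p = 0.0188). That difference was lost without naive R1 replicate 3, naive R2 replicate 1 or 2 or CAWS R2 replicate 2 (0.0519 to 0.0793). Its rise in R2 was lost without naive R2 replicate 3 (0.0627) or CAWS R2 replicate 2 (0.144). The other 4 genes were Anxa2, Hpse, the cyclin Ccne1 and the pore-forming protein Mpeg1, which was chosen after its values were seen. Anxa2 kept the difference only without CAWS R1 replicate 2 or CAWS R2 replicate 1 or 3 (0.0546 to 0.126 without the others).

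Both differences passed, with a more positive fold change in R2, for 4 genes (0.0301%), Anxa1, Anxa2, Ccne1 and Cd300lg. Against R3 the difference came from both sides. Of the 296 genes, 142 were higher in CAWS R2 and 160 lower in CAWS R3, with 112 higher in R2 and not past the threshold in R3, and 134 lower in R3 and not past it in R2. Of those 20 largest rises in R2, 19 differed from R3 and 0 from R1, with the R2 libraries entering both the choice and the test. Ccl22 had a log2 fold change of 4.26 ± 0.25 in R2 and -0.34 ± 0.23 in R3, a difference of 4.60 ± 0.35 (adjusted p = 1.22e-08). Ccl17 rose in R2 and fell in R3 (-2.09 ± 0.38), to 1.72, 1.497 and 1.27 CPM in CAWS R3, against 5.39, 6.52 and 7.15 CPM in naive R3, a difference of 4.47 ± 0.56 (adjusted p = 2.61e-05). Itgax rose in R2 and had a log2 fold change of -0.10 ± 0.22 in R3, a difference of 2.66 ± 0.32 (adjusted p = 6.66e-05).

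Of the 22 resident genes, 6 had a more positive fold change in R2 than in R3 and 0 a more negative one, beside 2.23% and 0.0979% of all genes tested. Vsig4 fell in R3 (-1.94 ± 0.25) and not in R2, a difference of 2.44 ± 0.33 (adjusted p = 1.43e-04). Timd4 had 10.3, 7.18 and 7.41 CPM in CAWS R3, against 40.9, 49.4 and 102 CPM in naive R3 (log2 fold change -2.95 ± 0.32), a difference from R2 of 2.40 ± 0.41 (adjusted p = 0.00205). The medians of the 22 resident genes were -0.21 in R2, -0.53 in R1 and -1.42 in R3. Mrvi1, a regulator of calcium release, fell in both R2 (-1.10 ± 0.15) and R3 (-2.58 ± 0.17), a difference of 1.48 ± 0.22 (adjusted p = 3.29e-04). The chemokine Cxcl9 rose in R2 (2.64 ± 0.19), R1 (1.78 ± 0.25) and R3 (2.29 ± 0.19), and neither difference passed (adjusted p = 0.724 against R1 and 0.725 against R3).

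**Figure D5:**
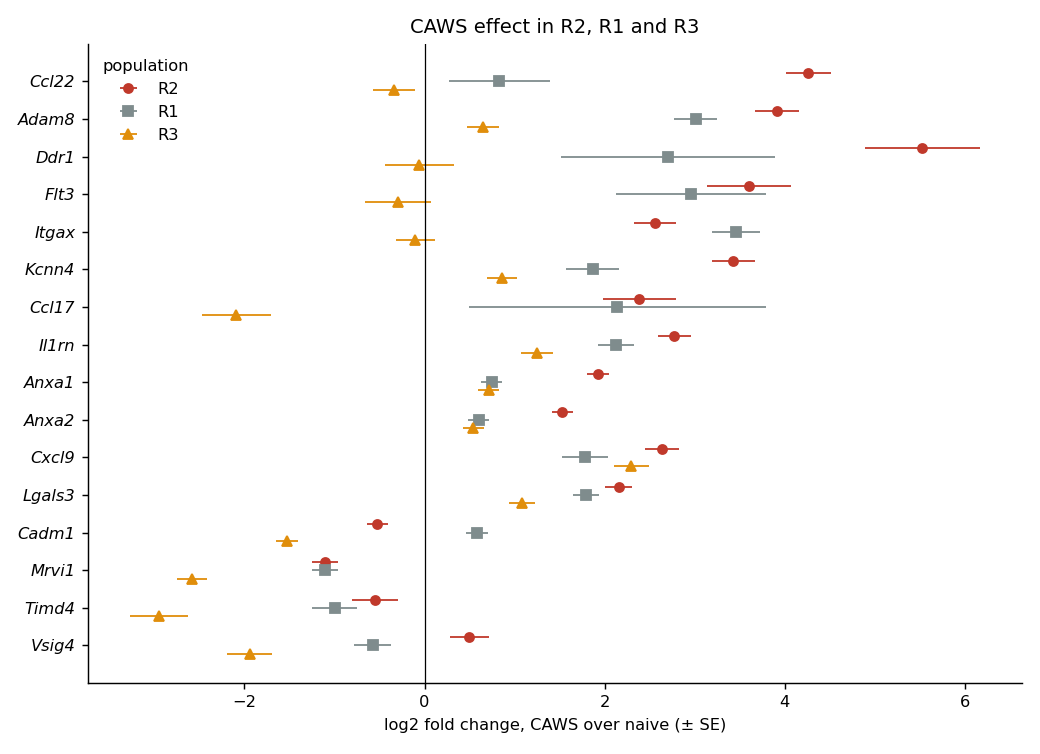
Log2 fold change of CAWS over naive with its standard error for 16 genes in R2 (red circles), R1 (grey squares) and R3 (orange triangles). Ccl22, at 4.26 in R2, lies just below 0 in R3, and Timd4 and Mrvi1 lie furthest below 0 in R3.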

How the data were processed

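RNA of freshly sorted cells was made into TruSeq libraries, per the labels' protocols. The authors deposited raw read counts per gene, made with featureCounts on mm10 per the submitters' processing notes; the aligner, annotation release and strand setting were not given in the sources used here. Gene IDs were paired with symbols, positions and promoter sequence through RefSeq (GRCm38.p6): 25275 of 27179 had a symbol. Genes passing filterByExpr (minimum count 10, minimum total 15) entered the test: 13275, of which 278 lacked a symbol. One edgeR 4.0.16 quasi-likelihood fit (R 4.3.3, TMM scaling, 7 group means, 14 residual degrees of freedom) over all 21 libraries gave every contrast and its Benjamini-Hochberg adjusted p, and CPM used TMM-scaled library sizes. Totals of the 21 libraries ran from 12800136 to 23006155 counts. The tests were tried on simulated data first. Replicates are pools of mice. The spread behind the p-values was estimated over the libraries of all 7 groups, and so is not that of the R2 pools alone. R1, R2 and R3 libraries of the same pools counted as independent in it. R2 replicates differed beyond sampling noise (chi-square per degree of freedom 10.2 to 50.4), and spleen monocyte replicates differed by 34.0 to 136.

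Alternatives were DESeq2 1.42.0, limma 3.58.1 voom, 2 other scalings, 2 other filters, an older edgeR fit, the R2 libraries alone, replicate blocks and leaving out each library. The members and gene lists were chosen with earlier results of these data known. Genes were named when they were sort markers, among the 20 largest rises or falls past the threshold without overlap between groups and with a mean of at least 4 log2 CPM in the higher group, among the 6 smallest p-values of a list, or past both interaction tests; some are not reported here, and any other is marked as chosen after its values were seen. List counts cover only members that passed the filter on low counts. Same-numbered CAWS and naive R2 libraries did not deviate together (correlations -0.0413 to 0.000553). Same-numbered libraries of R1, R2 and R3 within a treatment correlated at 0.0162 to 0.253, and the pool was matched by that number.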

Additional observations from a re-analysis of the deposited data

Results flagged for a closer look

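The CAWS effect in R2 differed from that in another population, by a test of the difference itself, in 7 genes against R1 and in 309 against R3. Differences below are of log2 fold changes, R2 minus the other population, with edgeR's Benjamini-Hochberg adjusted p.

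Against R1, the annexin genes were more positive in R2, Anxa1 by 1.18 (adjusted p = 0.00579) and Anxa2 by 0.93 (adjusted p = 0.0260). Anxa1 passed whichever 1 of the 12 libraries was left out. Anxa2 passed only without CAWS R1 replicate 2 or CAWS R2 replicate 1 or 3, and its adjusted p was 0.0546 to 0.126 without the others. The replication cyclin Ccne1 differed by 3.99 (adjusted p = 0.0260), lost without naive R1 replicate 2 or 3, naive R2 replicate 1 or 2, CAWS R1 replicate 1 or CAWS R2 replicate 1 or 2 (0.0519 to 0.126). Cd300lg differed by 1.93 (adjusted p = 0.0188), lost without naive R1 replicate 3, naive R2 replicate 1 or 2 or CAWS R2 replicate 2 (0.0519 to 0.0793). Heparanase, Hpse, differed by 1.64 (adjusted p = 0.0260), lost without naive R1 replicate 3, naive R2 replicate 1 or 3, CAWS R1 replicate 1 or CAWS R2 replicate 2 or 3 (0.0503 to 0.119). On the negative side, Cadm1 differed by -1.11 (adjusted p = 0.00839), lost without naive R1 replicate 3 or CAWS R2 replicate 2 (0.0508 and 0.0546). Mpeg1, chosen after its values were seen, differed by -0.83 (adjusted p = 0.0260) and passed only without naive R1 replicate 1 or 2, naive R2 replicate 3 or CAWS R1 replicate 3 (0.0503 to 0.127 without the others).

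Against R3, the chemokines Ccl22 and Ccl17 differed by 4.60 (adjusted p = 1.22e-08) and 4.47 (adjusted p = 2.61e-05). Adam8 differed by 3.26 (adjusted p = 2.74e-06), Itgax by 2.66 (adjusted p = 6.66e-05) and Kcnn4 by 2.57 (adjusted p = 2.61e-05). Anxa1 differed by 1.22 (adjusted p = 1.64e-04) and Anxa2 by 0.99 (adjusted p = 9.89e-04). Genes that fell more in R3 differed in the same direction: Vsig4 by 2.44 (adjusted p = 1.43e-04), Mrvi1 by 1.48 (adjusted p = 3.29e-04) and Cadm1 by 1.00 (adjusted p = 9.89e-04). These 10 passed whichever 1 library was left out. Ccne1 differed by 2.63 (adjusted p = 0.0327), lost without naive R2 replicate 1 or 2, naive R3 replicate 1, CAWS R2 replicate 1 or 2 or CAWS R3 replicate 1 or 2 (0.0574 to 0.160). Cd300lg differed by 1.12 (adjusted p = 0.0493) and passed only without naive R3 replicate 3, CAWS R2 replicate 3 or CAWS R3 replicate 1 (0.0685 to 0.216 without the others).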

How the results depend on the processing

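The count of genes changed in R2, 1365 with all 21 libraries in edgeR, was between 1161 and 1618 under DESeq2, the other scalings, filters and edgeR fit and the replicate blocks; it was 2808 in limma voom and 2809 in the fit of the R2 libraries alone, and between 732 and 1030 with 1 library left out. Of the 1365 genes, 99.8% were also called in limma voom and 99.3% by the R2 libraries alone, the settings that called the most genes. The share was 81.0% with no filter on low counts and 86.0% in the older edgeR fit. It was 52.5% to 69.7% with 1 R2 library left out, lowest without CAWS R2 replicate 2. Of 117 genes named with a call, 112 kept it in all 16 alternatives. The others were Csf1r, Cx3cr1, Tlr5, Cd300lg and H2-Eb2. Named genes were mostly picked for a small p-value or a large change, so they do not stand for all 1365. Among the genes without a call, Clec7a changed sign: it ran from -0.053 (CAWS R2 replicate 1 left out) to 0.087 with 1 library left out, and was -0.011 with naive R2 replicate 2 left out. The count against R1 (7) was 57 in DESeq2, 14 with no filter on low counts, 12 in the older edgeR fit, 22 in limma voom and 1 to 12 with 1 library left out. The count against R3 (309) was 623 in limma voom and 192 to 316 with 1 library left out. The cause of these shifts was not tested. With the replicate number as a block the R2 count was 1618, and with the pool as a random effect 1329; same-numbered CAWS and naive libraries share only a number. With the pool within treatment as a replicate block the counts were 123 against R1 and 812 against R3. With 3 libraries a group, and markers of other cells that moved with the CAWS group, small changes and changes in cell makeup could not be resolved.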
